A study of Mus musculus with 4 samples.

Results

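Genes that license, start and carry out DNA replication were compared between bulge basal cells and the total sorted epidermis of mouse back skin. The set was a list of 45 gene names, chosen with earlier results of these data known. Of these, 44 were measured by a probe set with a single gene symbol, of 12393 such genes in all. The exception was Chaf1a, a histone chaperone subunit, which was not analysed here. For each gene the probe set with the highest mean log2 signal over the 4 arrays was used, chosen without regard to group. All samples came from mice at postnatal day 49 whose K14 promoter, active in basal keratinocytes, drives a fusion of GFP and actin. The bulge group (2 arrays) held living GFP-positive cells with high α6 integrin and high CD34 at their surface, a gate for the resting stem cells of the hair follicle. The total group (2 arrays) held all living GFP-positive cells of the same skin, and it was not depleted of bulge cells. Every difference therefore sets bulge cells against a mixture that contains them. The mice carried no other labelled allele or treatment. The cell type label reads the same for all 4 samples, so titles and sorting gates define the groups.

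Before a cell can copy its DNA, the origin recognition complex, Cdc6 and Cdt1 load the MCM helicase onto origins, a step called licensing. At the start of S phase the Cdc7 kinase and cyclin E with its kinase fire the licensed origins, and Cdc45 joins MCM in the active helicase. Polymerases, the sliding clamp PCNA with its loader, ribonucleotide reductase and the chromatin maintenance factors then do the copying. Many of these genes are targets of E2F transcription factors, which pocket proteins of the Rb family restrain in resting cells. Bulge stem cells are known for cycling rarely, and day 49 falls in telogen, the rest phase of the hair cycle.

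The arrays gave 22690 probe set signals each, on a linear scale with array medians of 123.6 to 145.0 and equal trimmed means. The number of arrays limits the precision, and no label says that the 2 arrays of a group came from separate animals. What the p-values weigh is thus the spread among 4 arrays, and that spread may be technical. Of 9 bulge markers, 8 had both bulge arrays above both total arrays, where 18.0% of all genes did. Cd34, the gate's own antigen, had signals of 15697 and 14034 in the bulge group against 844 and 1144 in the total group. The file holds no detection calls, so the 95th percentile of 67 olfactory, vomeronasal and taste receptor genes, a signal of 150.0 (log2 7.23), served as the background level. Among the replication genes, 24 lay above it on all 4 arrays and 6 lay below it on all 4 (Orc1, Cdc6, Ccne1, Pola2, Pole and Tyms). Another 6 were below it on both bulge arrays and above it on at least 1 total array, and 8 were above it on exactly 1 bulge array.

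Most replication genes were lower in bulge cells. Both bulge arrays lay below both total arrays for 30 of the 44 genes, where 20.5% of all genes did, and both lay above for 0 of 44, where 18.0% of all genes did. The remaining 14 overlapped between groups. The log2 difference, bulge minus total, was below 0 for 39 of the 44 genes, against 51.7% of all genes. Its median was -0.80 (quartiles -1.23 and -0.29) over the 44 genes and -0.02 (quartiles -0.41 and 0.38) over all 12393, and the median over the 44 was -0.41 with values raised to the background level. A difference of -1 or lower was seen for 17 of the 44, against 9.09% of all genes, and one of 1 or higher for 0 of the 44, against 8.7%. The 17 include genes below background in 1 or both groups, and among genes above background on all arrays the count was 6 of 24, against 4.53%. Among genes above background in at least 1 group, 25 of 36 replication genes were lower without overlap, against 22.0% of all 7249 such genes. Of the same 36, 0 were higher, against 20.7%. Some of the 36, Mcm5 and Uhrf1 among them, entered only through the total group where they were high, which favours lower counts. Above background on all 4 arrays, 15 of 24 replication genes were lower without overlap and 0 higher. Over all 12393 genes, dim ones included, these shares were 20.5% and 18.0%. In bulk RNA, fewer cycling cells and less replication mRNA per cell cannot be told apart.

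No single replication gene passed the test across all genes. The limma fit on group alone, with Benjamini-Hochberg adjustment over 12393 genes, called 0 genes lower and 0 higher at an adjusted p of 0.05, in both cases 0.0% of all genes. At an unadjusted p under 0.05 it had 12 of the 44 replication genes lower and 0 higher, against 5.29% and 5.18% of all genes. The 12 were Uhrf1, Cdt1, Mcm5, Mcm3, Mcm6, E2f1, Cdc6, Hells, Ccne2, Cdc7, Tk1 and Pola1. That count was smaller without total replicate 1 and without total replicate 2, fits for which no share of all genes is given here. A limma fit with an intensity trend called 0.524% of all genes lower and 0.557% higher, and 0 of the 44 replication genes, whose smallest adjusted p in that fit was 0.0713, for Cdt1. With genes dim in both groups left out before the fit, Uhrf1 alone of the 44 passed, with an adjusted p of 0.0375 in limma, having entered through the total group where it was above background.

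**Figure D1:**
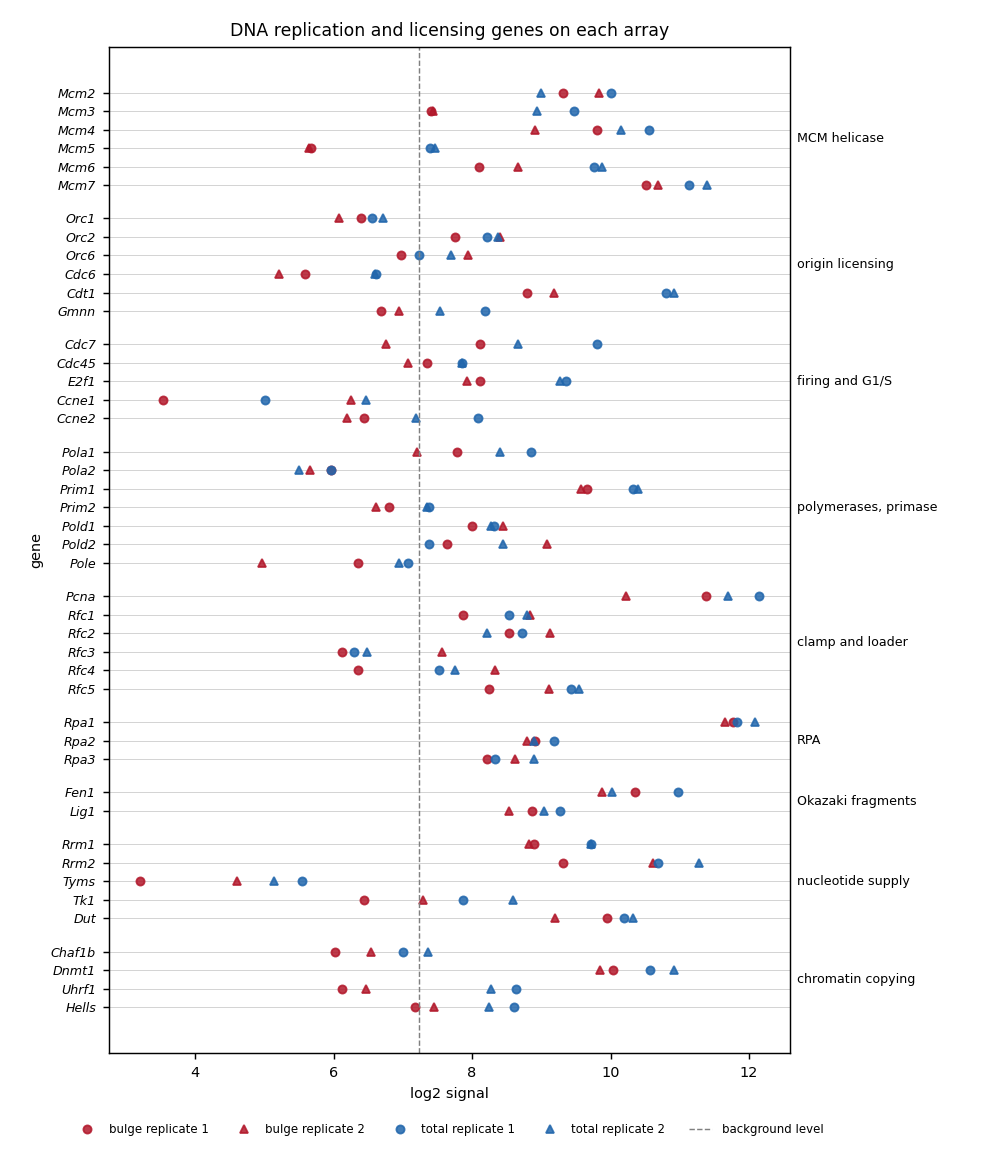
Log2 signal (horizontal axis) of the 44 measured replication genes (rows, grouped by role) on each array, with bulge arrays in red and total arrays in blue and the background level of 7.23 as a dashed line. In 30 rows both red points lie left of both blue points, and in 0 rows do both lie right of them.

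Bulge replicate 1 was lower than total replicate 1 for 42 of the 44 genes, where 55.6% of all genes were. It was lower than total replicate 2 for 39, where 46.3% of all genes were. Bulge replicate 2 was lower than total replicate 1 for 34 of the 44, where 56.6% of all genes were. It was lower than total replicate 2 for 34 as well, where 46.9% of all genes were. The median difference of the 44 genes ran from -0.75 to -0.72 over these 4 pairs, and that of all genes from -0.15 to 0.07. The summed signal of the 44 genes was 20356 and 20361 on the bulge arrays, against 33772 and 32697 on the total arrays. An exact permutation test of 2 arrays against 2 cannot give a two-sided p below 0.333, so no p-value is given for such sums.

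**Figure D2:**
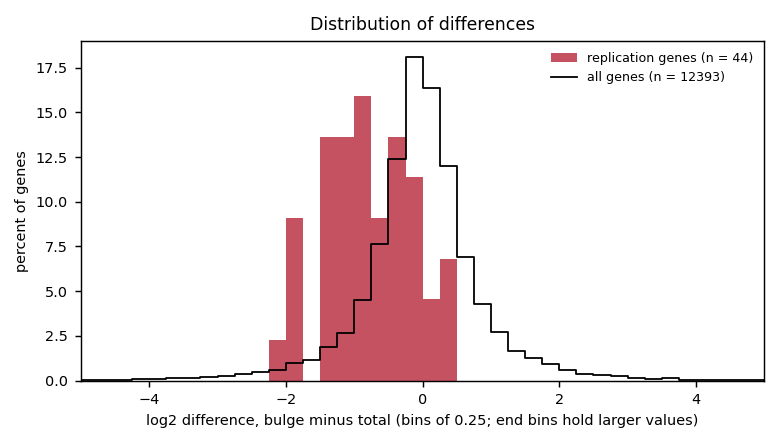
Share of genes (vertical axis, percent) in bins of the log2 difference, bulge minus total (horizontal axis), for the 44 replication genes (red bars) and all 12393 genes (black line). The replication genes are shifted to the left, with a median of -0.80 against -0.02, and the highest of them is at 0.45.

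Markers of leukocytes were lower on the same arrays, although both gates required GFP. For comparison, 20.5% of all genes were lower and 18.0% higher without overlap. Of 8 T cell markers 7 were lower without overlap, and their summed signal was 285 and 453 on the bulge arrays against 1995 and 3333 on the total arrays. The CD3 genes Cd3e and Cd3g and the leukocyte phosphatase gene Ptprc were below background on both bulge arrays and above it on both total arrays. Of 12 Langerhans cell and myeloid markers 9 were lower and 1 higher without overlap. Their summed signals were 4340.4 and 4395 on the bulge arrays against 15308 and 16009.8 on the total arrays. The higher one was Epcam, with 2814.9 and 2375.9 on the bulge arrays against 2347.5 and 1904.3 on the total arrays. Epcam gave more of the bulge sums than any other marker of this list, so these sums understate how much lower the rest were. Cd207 (langerin) was above background on 1 of 2 bulge arrays, and Csf1r and H2-Aa stayed above it on both. Of 6 suprabasal markers 2 were lower without overlap, with summed signals of 22396 and 62459 on the bulge arrays against 40189.9 and 61281 on the total arrays. Most of these sums came from Krt10 and Lor, while the keratin gene Krt1, named after its values were seen, had 699 and 1118 in the bulge group against 8379 and 9222 in the total group. Krt1 was 9.94-fold lower, with an adjusted p of 0.0824 in limma and 0.0297 with the intensity trend. The other lower marker, Ivl, was below background on all arrays. Krt10, Krtdap, Lor and Flg overlapped between groups, with log2 differences of -0.47, -0.74, 0.69 and 0.22, so Krt1 does not stand for the list. Of 7 melanocyte markers 6 were lower and 1 higher without overlap, with summed signals of 7077 and 3328 on the bulge arrays against 2893 and 2111 on the total arrays. The higher one was Mitf, named after its values were seen, and without it the sums were 951.7 and 867.7 on the bulge arrays against 1907 and 1732 on the total arrays. The part of any of these cells in the replication gene result was not tested.

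The MCM subunits form the ring-shaped helicase that unwinds the DNA. Of the 6, 5 were lower in bulge cells without overlap, where 20.5% of all genes were. Mcm3 had signals of 170.4 and 173 in the bulge group against 709.8 and 491 in the total group, 3.43-fold lower (log2 difference -1.78 ± 0.40, SE; limma adjusted p = 0.185). Mcm6 had 275 and 405 in the bulge group against 867 and 942 in the total group, a log2 difference of -1.44 ± 0.41 (SE). Both bulge values of each gene lay well below both total values, and a second Mcm6 probe set above background on all arrays gave -1.57. A second Mcm3 probe set, above background on 3 arrays, gave -2.01. Those of Mcm3 below background on all arrays did not go the same way, with 0.03, -1.81 and 0.06. Mcm5 was below background in the bulge group, with signals of 51.3 and 50.4 there against 168 and 176 in the total group, and it was at least 1.15-fold lower. Mcm4 had 892 and 481 in the bulge group against 1497 and 1138 in the total group, a log2 difference of -0.99 ± 0.47 (SE). Mcm7 had 1454 and 1648 in the bulge group against 2252 and 2694 in the total group, and its other 3 probe sets gave log2 differences of -0.51 to -0.70.

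Mcm2 was the MCM subunit whose probe sets above background on an array disagreed. Its brightest probe set had signals of 641 and 915 in the bulge group against 1034 and 513 in the total group, overlapping, with a log2 difference of 0.07 (95% interval -1.21 to 1.35). Its other probe set had log2 signals of 6.61 and 6.48 in the bulge group, below background, against 8.49 and 8.20 in the total group, without overlap. The rule of the brightest probe set therefore decides whether Mcm2 counts among the lower genes. In all, 25 of the 44 genes had several probe sets, and all of a gene's probe sets went the same way for 19 of the 25. For 14 genes at least 2 probe sets were above background on at least 1 array, and these went the same way for 12. Over all 79 probe sets of the 44 genes, 48 were lower in the bulge group without overlap and 0 were higher, against 20.9% and 17.1% of all 20380 probe sets with 1 symbol.

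Origin licensing factors were split. Cdt1, which brings MCM to the origin, had signals of 442 and 578 in the bulge group against 1780 and 1942 in the total group, 3.68-fold lower (log2 difference -1.88 ± 0.39, SE; limma adjusted p = 0.156). Its second probe set gave -1.41, also without overlap. Geminin (Gmnn), which binds and blocks Cdt1, was below background in the bulge group with 103 and 123 there against 291 and 186 in the total group, at least 1.55-fold lower. The inhibitor and its target were thus both lower in bulge cells, neither past the adjusted threshold. Cdc6, the ATPase that works with Cdt1, had 48.3 and 37.1 in the bulge group against 98.4 and 96.9 in the total group, all below background, so no fold is given. Orc1, the largest subunit of the origin recognition complex, was below background on all 4 arrays too, with 84.2 and 67.6 in the bulge group against 93.8 and 105 in the total group. The subunits Orc2 and Orc6 overlapped between groups, with log2 differences of -0.21 (95% interval -1.28 to 0.86) and -0.01 (95% interval -1.26 to 1.24).

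Genes that fire origins and drive entry into S phase were lower in 4 of 5 without overlap, where 20.5% of all genes were, and 0 of the 5 passed the adjusted threshold. E2f1, a transcription factor of the E2F family, had signals of 278 and 244 in the bulge group against 655 and 618 in the total group. It was 2.44-fold lower, with a log2 difference of -1.29 ± 0.37 (SE). Cdc7, the origin-firing kinase, had 278 and 108 in the bulge group against 896 and 404 in the total group. Its replicates differed widely in both groups, with a log2 difference of -1.80 ± 0.66 (SE). A second Cdc7 probe set, below background on all arrays, overlapped at -0.21. The regulatory partner of Cdc7, Dbf4, was below background on both bulge arrays and at least 1.40-fold lower. Cdc45, which joins the active helicase, had 163 and 135 in the bulge group against 231 and 232 in the total group. Of the E-type cyclins, Ccne2 was below background in the bulge group (87.0 and 73.3) and above it on 1 of 2 total arrays (272 and 146), while Ccne1 was below background everywhere and overlapped.

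Of the 7 polymerase and primase genes 4 were lower without overlap, where 20.5% of all genes were. Pola1, the catalytic subunit of polymerase α, had signals of 220.3 and 147 in the bulge group against 460.2 and 339.8 in the total group, a log2 difference of -1.14 ± 0.43 (SE). Prim1, the primase that lays the RNA primers, had 811 and 757 in the bulge group against 1289 and 1352 in the total group, 1.68-fold lower and without overlap. Prim2, its partner, was below background in the bulge group and at least 1.10-fold lower by the means (log2 difference -0.66, 95% interval -1.59 to 0.28). Pole, the catalytic subunit of the leading strand polymerase, was below background on all 4 arrays, as was Pola2. The polymerase δ genes overlapped between groups. Pold1, its catalytic subunit, had 257 and 346 in the bulge group against 320.2 and 312 in the total group, a log2 difference of -0.08 (95% interval -1.07 to 0.90). Pold2, an accessory subunit, had 199 and 539.8 in the bulge group against 167 and 348 in the total group, a log2 difference of 0.44 (95% interval -1.23 to 2.12).

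Pcna, the ring that tethers polymerases to DNA, had signals of 2672 and 1194 in the bulge group against 4543 and 3311 in the total group, a log2 difference of -1.12 ± 0.53 (SE). The bulge values lay below both total values but differed from each other by more than the total values did. The 5 genes of its loader, replication factor C, did not follow as a group. Rfc5 was lower without overlap, with 304 and 552 in the bulge group against 689 and 744 in the total group. Rfc1, Rfc2, Rfc3 and Rfc4 overlapped, with log2 differences of -0.32, 0.36, 0.45 and -0.30. The bulge replicates were far apart for Rfc4 (81.4 and 323, against 184 and 216 in the total group). Without bulge replicate 1, 8 of the 44 genes lay above both total arrays, where 36.4% of all genes did. They were Orc2, Orc6, Pold1, Pold2 and these 4 loader genes, and of these all but Rfc2 had a difference below 0 without bulge replicate 2.

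**Figure D3:**
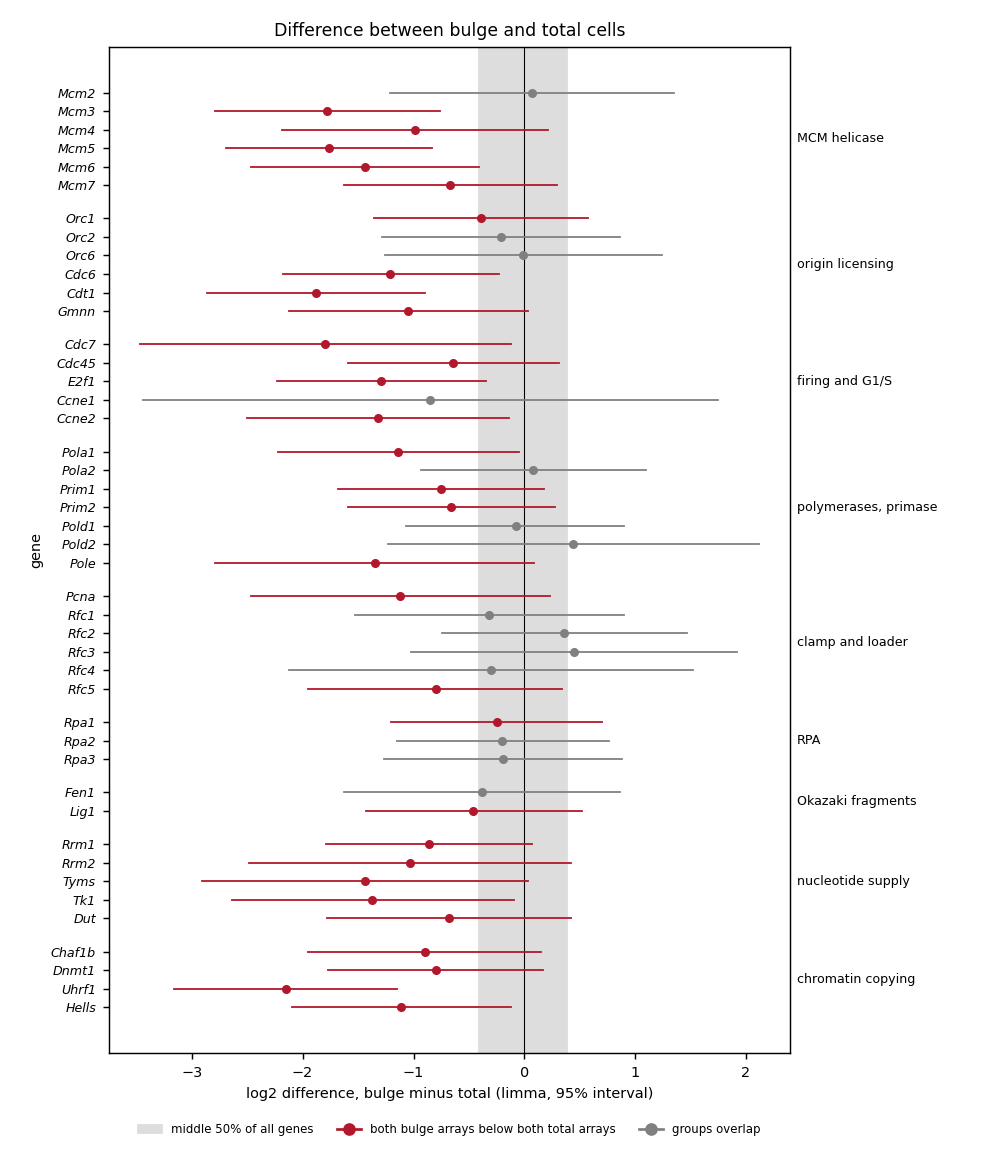
Log2 difference, bulge minus total, with its 95% interval from limma (horizontal axis) for each of the 44 replication genes (rows, by role), in red where both bulge arrays lie below both total arrays and grey where the groups overlap. The shaded band spans the quartiles of all genes (-0.41 to 0.38). MCM, nucleotide supply and chromatin genes lie mostly left of the band, and replication factor C and RPA genes mostly within it.

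The single-strand binding protein RPA, which also serves in DNA repair outside S phase, had differences near 0. Its 95% intervals include both directions, which does not set it apart. Those of Pcna (-2.47 to 0.23), Rrm2 (-2.48 to 0.42) and Mcm4 (-2.19 to 0.21) do so too. Rpa1 had signals of 3485 and 3215 in the bulge group against 3642 and 4357 in the total group. It was lower without overlap, with a log2 difference of -0.25 (95% interval -1.20 to 0.70). Rpa2 and Rpa3 overlapped, with log2 differences of -0.20 and -0.19. The Okazaki fragment genes were similar in size of difference. Lig1, the ligase that seals the fragments, had 467 and 371 in the bulge group against 617 and 527 in the total group, and Fen1, the flap nuclease, had 1305 and 937 in the bulge group against 2012 and 1037 in the total group, overlapping. The median log2 difference was -0.20 over the 3 RPA genes and -0.31 over the 6 clamp and loader genes, against -1.22 over the 6 MCM genes. These differences between roles were not tested.

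All 5 genes that supply deoxynucleotides were lower without overlap, where 20.5% of all genes were. Rrm2, the ribonucleotide reductase subunit made in S phase, had signals of 636 and 1561 in the bulge group against 1657 and 2488 in the total group, a log2 difference of -1.03 ± 0.57 (SE). Rrm1, the partner subunit, had 477 and 452 in the bulge group against 843 and 843 in the total group, so both pairs were tight and 1.82-fold apart. Tk1, the salvage enzyme thymidine kinase, had 86.6 and 157 in the bulge group against 234 and 385 in the total group, a log2 difference of -1.37 ± 0.50 (SE). Dut, which removes dUTP, had 990.2 and 588 in the bulge group against 1170.2 and 1283 in the total group. Tyms, thymidylate synthase, was below background on all 4 arrays, and its 3 probe sets, all below background, did not go the same way. Rrm2b, the reductase subunit used for repair in resting cells and not one of the 44, had 1148 and 697 in the bulge group against 586 and 427 in the total group, a log2 difference of 0.84 ± 0.45 (SE) without overlap. Neither Rrm2 nor Rrm2b passed the test, and the difference between them was not tested.

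All 4 measured genes that copy chromatin and DNA methylation were lower without overlap, where 20.5% of all genes were. Uhrf1, which reads hemimethylated DNA and recruits Dnmt1, was below background in bulge cells. Its signals were 69.8 and 88.7 in the bulge group against 395 and 309 in the total group, at least 2.33-fold lower, with an adjusted p of 0.125 in limma. A second Uhrf1 probe set, below background on all arrays, overlapped between groups at a log2 difference of -1.33. Dnmt1, the maintenance methyltransferase, had 1049 and 919.8 in the bulge group against 1521 and 1921 in the total group, 1.74-fold lower, and a second probe set stood at -0.36 on the log2 scale, also without overlap. Hells, a chromatin remodeller needed for DNA methylation, had 144 and 175 in the bulge group against 388 and 302 in the total group, a log2 difference of -1.11 ± 0.39 (SE). Chaf1b, a subunit of the chaperone that puts histones on new DNA, was below background on both bulge arrays (65.0 and 93.1) and above it on 1 of 2 total arrays (128 and 164).

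Because many of these genes are textbook E2F targets, their promoters were searched for the E2F word, as the 4 forms TTTCCCGC, TTTCGCGC, TTTGCCGC and TTTGGCGC on either strand. RefSeq promoters (GRCm38.p6, 250 bases before to 50 after the transcript start) were found for 38 of the 44 genes, 48 promoters in all. A word was present in 14 of the 48 (29.2%), against 744 of all 32851 promoters of the same length (2.26%). These 14 promoters belonged to 14 genes. Base composition differs, with a median GC content of 61.8% in the 48 promoters and 52.7% in all. At a GC content of 60 to 70% a word was present in 8 of 21 promoters of the set, against 4.74% of all such promoters. At 70 to 100% it was present in 0 of 5, against 3.37%. Among promoters of the genes tested here the share was 3.38%. By the direction in the arrays, 12 of the 25 genes lower without overlap and 2 of the 13 others had a word. The lists described further below varied. A word was found for 6 of 23 further replication genes, 5 of 10 other E2F and cyclin genes and 3 of 17 S-phase repair genes. It was found for 0 of 13 further nucleotide genes. Of the mitosis genes, 0 of 24 had a word, though 26 of 28 were lower without overlap. Since many of the genes were known as E2F targets beforehand, these shares are a description with no test.

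The promoters shown are those of 4 lower genes (Uhrf1, Cdt1, Mcm3 and Mcm6) and, for comparison, of Pold1, which has a word but overlapped between groups. Each is written 5′ to 3′ on the gene's strand, with E2F words on either strand in capitals. They lie at chr17:56304063-56304362 (+ strand) for Uhrf1, chr8:122567765-122568064 (+ strand) for Cdt1, chr1:20820263-20820562 (- strand) for Mcm3, chr1:128359656-128359955 (- strand) for Mcm6 and chr7:44548766-44549065 (- strand) for Pold1.
Uhrf1: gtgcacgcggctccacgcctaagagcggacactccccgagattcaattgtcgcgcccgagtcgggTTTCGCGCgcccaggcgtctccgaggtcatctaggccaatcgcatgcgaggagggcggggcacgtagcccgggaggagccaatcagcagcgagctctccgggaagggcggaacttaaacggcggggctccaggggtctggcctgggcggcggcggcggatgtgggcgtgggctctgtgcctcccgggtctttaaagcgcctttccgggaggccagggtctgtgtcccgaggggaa
Cdt1: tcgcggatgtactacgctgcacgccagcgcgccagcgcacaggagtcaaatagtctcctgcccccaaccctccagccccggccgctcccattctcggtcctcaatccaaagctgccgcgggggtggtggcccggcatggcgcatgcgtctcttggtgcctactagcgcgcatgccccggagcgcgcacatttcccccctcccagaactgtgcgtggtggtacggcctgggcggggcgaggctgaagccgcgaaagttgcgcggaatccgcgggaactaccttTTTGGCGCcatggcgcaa
Mcm3: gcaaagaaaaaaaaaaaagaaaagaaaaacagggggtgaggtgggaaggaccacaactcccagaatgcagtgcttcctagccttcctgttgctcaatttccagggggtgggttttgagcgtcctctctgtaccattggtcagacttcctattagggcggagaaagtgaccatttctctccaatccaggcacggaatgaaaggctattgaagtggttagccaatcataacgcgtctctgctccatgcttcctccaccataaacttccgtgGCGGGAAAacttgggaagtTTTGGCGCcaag
Mcm6: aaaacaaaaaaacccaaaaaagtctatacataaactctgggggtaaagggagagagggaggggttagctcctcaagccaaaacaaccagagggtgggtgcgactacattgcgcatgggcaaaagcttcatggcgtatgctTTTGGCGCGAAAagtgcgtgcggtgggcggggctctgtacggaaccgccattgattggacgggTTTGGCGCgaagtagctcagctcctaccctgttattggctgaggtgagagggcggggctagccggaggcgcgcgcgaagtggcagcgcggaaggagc
Pold1: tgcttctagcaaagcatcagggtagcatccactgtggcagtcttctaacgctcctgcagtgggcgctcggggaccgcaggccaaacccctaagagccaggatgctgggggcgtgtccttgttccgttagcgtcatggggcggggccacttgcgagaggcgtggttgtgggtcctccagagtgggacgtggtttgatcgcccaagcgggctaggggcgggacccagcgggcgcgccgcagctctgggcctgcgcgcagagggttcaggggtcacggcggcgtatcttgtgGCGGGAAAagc
In Mcm6 the capitals begin with 2 words on opposite strands that overlap, at bases -110 and -106 from the transcript start, and another begins at -47. In Cdt1 and Mcm3 the words begin after the start, at base 33 in Cdt1 and at bases 20 and 39 in Mcm3, and in Uhrf1 the word begins at -185. Uhrf1 has another promoter in the table, which holds no such word. A match in letters is not a binding site, and the absence of a match says nothing of E2F binding.

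**Figure D4:**
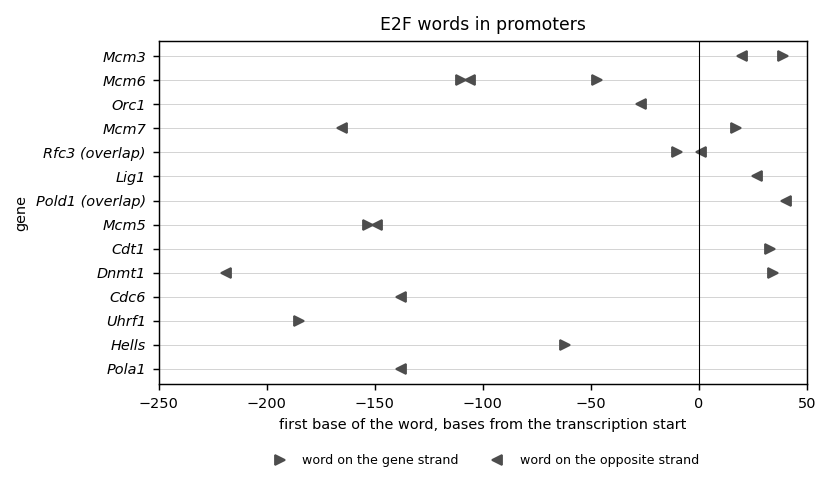
Position of the first base of each E2F word (horizontal axis, bases from the transcript start) in the 14 replication gene promoters that hold one (rows), with the pointing direction of a marker giving its strand. Words lie on both sides of the start, and the 2 genes marked overlap, Rfc3 and Pold1, are those whose bulge and total signals overlapped.

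Other genes of the pathway, listed by role, went both ways. Of 28 further replication genes measured, 10 were lower without overlap and 7 higher, with 5 lower and 2 higher at an unadjusted p under 0.05, and their median log2 difference was -0.30. Top2a, the topoisomerase of S phase and mitosis, had signals of 394 and 426 in the bulge group against 1969.7 and 1112 in the total group, a log2 difference of -1.85 ± 0.45 (SE). Wdhd1, which links helicase and polymerase α, had 194 and 166 in the bulge group against 540.4 and 428 in the total group. Timeless, of the fork protection complex, and the nuclease gene Dna2 were below background in the bulge group and at least 1.78-fold and 1.55-fold lower. In the other direction, Orc3, an origin recognition subunit, had 474 and 669 in the bulge group against 205 and 237 in the total group, a log2 difference of 1.35 ± 0.40 (SE). Pole4, a small subunit of polymerase ε, had 2511 and 2258 in the bulge group against 940.0 and 1166 in the total group, a log2 difference of 1.19 ± 0.38 (SE). These counts compare with 20.5% lower and 18.0% higher without overlap among all genes, and with 5.29% and 5.18% at the unadjusted p, so the higher counts are near those of all genes. In limma, 0 of the 28 passed the adjusted threshold with or without the intensity trend.

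Of 13 other E2F family, S-phase cyclin and kinase genes, 7 were lower and 1 higher without overlap, where 20.5% and 18.0% of all genes were. E2f8, an atypical E2F that represses S-phase genes, had signals of 71.7 and 122 in the bulge group, below background, against 1179 and 1589 in the total group. It was at least 9.12-fold lower, with an adjusted p of 0.0806 in limma and 0.0297 with the intensity trend. Cks2, a small subunit that binds cyclin-dependent kinases, had 676 and 1045 in the bulge group against 5720.3 and 5817 in the total group, 6.86-fold lower, with an adjusted p of 0.101 in limma and 0.038 with the trend. With total replicate 1 or total replicate 2 left out, the trended fit called 0 genes, E2f8 and Cks2 included. The Cks2 relative Cks1b had 2043 and 2492 in the bulge group against 1738 and 1939.8 in the total group, a log2 difference of 0.30 ± 0.38 (SE) that did not pass. Ccna2 and Cdk1, the cyclin and kinase of S phase and mitosis, had log2 differences of -1.45 ± 0.46 (SE) and -1.70 ± 0.55 (SE).

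S-phase repair and chromatin genes were lower in 15 of 20 without overlap and higher in 0, with a median log2 difference of -0.52. For comparison, 20.5% of all genes were lower and 18.0% higher without overlap. Chek1, the kinase that guards stalled forks, was below background in the bulge group (136 and 112, against 759 and 564 in the total group) and at least 4.36-fold lower. Rad51ap1, a cofactor of homologous recombination, had 90.1 and 172 in the bulge group against 437 and 414 in the total group. The recombination gene Rad54l was at least 1.78-fold lower. Of 14 further nucleotide synthesis genes, many of which serve RNA synthesis as well, 6 were lower and 2 higher without overlap, and their median log2 difference was -0.27. Nme1, a nucleoside diphosphate kinase, had 315 and 1038 in the bulge group against 2316 and 1948 in the total group, and Mthfd2, a mitochondrial folate enzyme, was at least 1.87-fold lower. Both had an unadjusted p under 0.05 in limma, and 0 of the 14 passed after adjustment.

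Genes of mitosis, a later stage of the same cycle, were lower in 26 of 28 without overlap, where 20.5% of all genes were. Their median log2 difference was -1.58, and 21 were lower at an unadjusted p under 0.05 in limma, against 5.29% of all genes. Only 4 of the 28 were above background on all arrays and 6 were below it on all arrays. The median and counts therefore rest largely on dim values. Mki67, the proliferation marker, had signals of 249 and 502 in the bulge group against 2617 and 1746 in the total group, 6.05-fold lower, with an adjusted p of 0.146 in limma. Anln, a cytokinesis protein, had 300.4 and 313 in the bulge group against 2562 and 1278 in the total group. Both replication and mitosis genes were lower, and the difference between their medians was not tested.

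**Figure D5:**
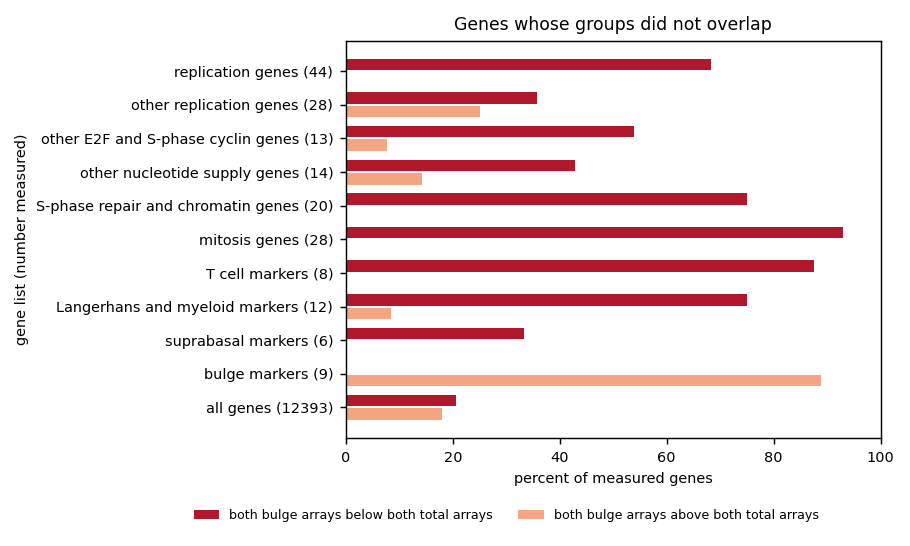
Percent of measured genes (horizontal axis) in each list (rows, number measured in brackets) with both bulge arrays below both total arrays (dark red) or above both (light). The replication genes stand at 68.2% lower and 0% higher, the mitosis genes at 92.9% lower, and all genes at 20.5% lower and 18.0% higher.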

How the data were processed

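RNA from sorted cells was reverse transcribed from 200 ng with oligo-dT priming, amplified and hybridised to Affymetrix arrays, per the labels' protocols. The authors deposited 1 table of probe set intensity on a linear scale, with a trimmed mean (2% off each end) of 500.0 on every array. The software in the submitters' processing notes is GCOS, RMA, affy 1.36 and R 2.15.1. Which of them made the table is not given in the sources used here.

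Of 22690 probe sets, 64 were controls, 691 had several symbols and 1555 none, and these were left out. The other 20380 took their names from the platform annotation, 20351 with a symbol brought up to date by Entrez ID, giving 12393 genes. Log2 of the deposited signal was fitted with limma 3.58.1 (R 4.3.3) with group as the only term, two-sided, and p-values were adjusted by Benjamini-Hochberg over the 12393 genes. The script was tested on simulated data. Intervals are limma's 95% intervals. Where neither array of 1 group reached the background level, the fold is a bound, the other group's mean over the higher of that level and the dim group's own value. Where both groups are below it, no fold is given. Bounds carry no sampling error.

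The 45 genes, the lists by role and the tests were chosen with earlier results of these data known. All 44 measured genes are named by role, and other lists by at most 4 genes with the smallest p in the direction most took and 2 in the opposite one, above background in a group, with fewer given where they had little to add. For 4 of the 44 genes the probe set is of the kind whose probes can match other transcripts (suffix _x_at: Mcm6, Fen1, Rrm2 and Dnmt1), and for another 4 its probes are shared by several transcripts (suffix _s_at: Mcm2, Mcm3, Mcm7 and Rfc4), so their signals may include related sequences. Other settings were an intensity trend, a robust prior, a filter on dim genes, array normalizations, probe set rules, log2 of signal plus 32, a floor at background, a replicate block and each array left out.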

Additional observations from a re-analysis of the deposited data

How the results depend on the processing

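The median difference of the replication genes stayed negative in every setting tried, from -0.81 to -0.67, except that it was -0.41 with values raised to the background level, which removes differences below that level by construction. Without 1 array it ran from -0.80 to -0.72. Over the 24 genes above background on all arrays, a comparison chosen after seeing the data, it was -0.68. The number lower without overlap was 24 to 30 with all arrays and 32 to 38 without 1 array, where 27.9% to 39.9% of all genes were. The number higher without overlap was 0 except for 1 (Pola2) with quantile normalization and 1 to 8 without 1 array, where 26.7% to 36.4% of all genes were higher. With 1 array left out, 4 to 13 were lower and 0 to 1 higher (Rfc3, without bulge replicate 1) at an unadjusted p under 0.05. The median of the 28 further replication genes ran from -0.43 to -0.19 without 1 array.

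Over all genes, the limma fit on group alone called 0, the intensity trend 134 (69 higher, 65 lower), the filter on dim genes 222 (104 higher, 118 lower), log2 of signal plus 32 called 37 (18 higher, 19 lower) and values raised to background 5 (1 higher, 4 lower). The filter called 1 replication gene, Uhrf1, and tests fewer genes. With the trend and 1 array left out, choices added after seeing the data, the calls were 388 (171 higher, 217 lower) without bulge replicate 1, 350 (153 higher, 197 lower) without bulge replicate 2 and 0 without either total array. Of the replication genes these fits called 1 (Cdt1), 3 (Mcm6, Cdt1 and Uhrf1) and 0. A group left with 1 array is assumed to vary like the other.

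Of the 44 genes, 25 were below 0 in every setting, Rfc2 was above 0 in every setting, and Cdc6, Orc1 and Pole came to 0 with values raised to background and were below 0 otherwise. The other 15 changed sign, none of them passing the adjusted threshold in any setting run. Without 1 array the log2 difference ran from -2.21 to 0.51 for Ccne1, -0.86 to 0.09 for Fen1, -0.43 to 0.58 for Mcm2, -0.54 to 0.12 for Orc2, -0.49 to 0.47 for Orc6 and -0.14 to 0.31 for Pola2. It ran from -0.30 to 0.13 for Pold1, -0.27 to 1.16 for Pold2, -0.80 to 0.17 for Rfc1, -0.27 to 1.17 for Rfc3, -1.29 to 0.70 for Rfc4 and -0.47 to 0.09 for Rpa3. With the second brightest probe set it was 0.18 for Dut, -1.80 for Mcm2, 0.12 for Rfc1, 1.34 for Rpa2 and 0.77 for Tyms, and with the mean of probe sets -0.86 for Mcm2 and 0.57 for Rpa2. Orc6 had 0.04 with quantile normalization, 0.06 with array centring and 0.12 with values raised to background, where Rfc4 had 0.14. The causes were not tested.

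Same-numbered arrays of the 2 groups share only a number in the labels. Their replicate differences correlated at r = 0.627 across 5780 genes above background, which are not independent replicates. With the replicate number as a block, 0 genes were called. At an unadjusted p under 0.05 in limma, 17 replication genes were lower with the block and 12 without it. The share of all genes is given only for the fit without the block, so this rise cannot be read as particular to the replication genes. At the 99th percentile of the receptor genes in place of the 95th the background signal was 195.6. At that level Mcm5 and Prim2 lay below background on all arrays, so their bounds hold only for the 95th percentile. With the words TTTCGCGC and TTTGGCGC alone, 11 of the 48 promoters held one, against 0.813% of all promoters. For the 6 genes below the 95th percentile level on all arrays no fold could be given.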
